A study of Mus musculus with 5 samples.

Results

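Reads on Cyfip1 were followed along the gene in RNA immunoprecipitation libraries from mouse hippocampus. Every called region that the deposited annotation assigns to the gene Cyfip1 (ENSMUSG00000030447) was used. There were 54 such region entries among 16828 in 4 lists. Each list of mouse 1 held 1 of them and each list of mouse 2 held 26, and the 26 had the same coordinates in both lists of mouse 2. Hippocampal lysates of C57BL/6 mice had been incubated with a mouse anti-HA antibody (Covance) or with mouse control IgG, and the RNA on Dynabeads Protein G was sequenced as cDNA. The libraries were anti-HA precipitates of knock-in mice 1 and 2, an anti-HA precipitate of 1 wild-type mouse, and IgG precipitates of the same knock-in mice 1 and 2. The study examined RNA bound by the CYFIP1 protein. The labels do not say which allele was inserted, or the age of the animals, and nothing in them says that the libraries of a group came from separate preparations, so the spread between them may be technical. Each list gives reads of 1 knock-in HA library and of 1 control, so the HA reads of a mouse appear in both of its lists.

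CYFIP1 is a large cytoplasmic protein of neurons and many other cells. It is a core subunit of the WAVE regulatory complex, which turns Rac signals into branched actin, and it also binds the fragile X protein FMRP and the cap-binding protein eIF4E, through which it holds back translation. It is known in the brain for its part in dendritic spine shape and local protein synthesis. What is followed here is not the protein but reads on its own gene in the anti-HA precipitates.

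In GENCODE M21 (GRCm38/mm10) the gene lies at chr7:55841745-55932602 on the plus strand. Its transcript Cyfip1-201 has 31 exons, of which exons 2 to 31 hold 3762 coding bases with the stop codon, for 1253 residues. Exon 1 is noncoding, and the 3′ UTR of 2440 bases lies in exon 31. The 26 regions of mouse 2 began and ended close to the coding sequence, and the coding sequence at its ends and at the exons with extreme read numbers is given here from the GENCODE M21 transcripts. Capitals mark the start codon at chr7:55871860 and the stop codon that ends at chr7:55930162, both on the plus strand.
Cyfip1-201 exon 2, from the start codon, chr7:55871860-55871976: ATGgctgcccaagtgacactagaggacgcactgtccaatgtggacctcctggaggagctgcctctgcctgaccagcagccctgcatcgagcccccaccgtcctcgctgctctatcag
Cyfip1-201 exon 31, coding part, chr7:55929998-55930162: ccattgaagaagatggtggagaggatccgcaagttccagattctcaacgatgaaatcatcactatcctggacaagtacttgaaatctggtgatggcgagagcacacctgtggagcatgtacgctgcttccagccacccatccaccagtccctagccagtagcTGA
Cyfip1-201 exon 29, in the region with the most HA reads, chr7:55926288-55926526: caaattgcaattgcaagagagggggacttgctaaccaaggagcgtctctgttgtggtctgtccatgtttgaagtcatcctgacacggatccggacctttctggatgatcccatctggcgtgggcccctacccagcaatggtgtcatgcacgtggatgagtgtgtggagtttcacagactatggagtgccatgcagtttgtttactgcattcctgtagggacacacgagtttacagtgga
Cyfip1-201 exon 27, in the region with the fewest HA reads, chr7:55924374-55924446: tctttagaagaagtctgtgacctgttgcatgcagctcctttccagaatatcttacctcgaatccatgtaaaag

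In mouse 2, called regions lay on the coding sequence of Cyfip1 and on almost none of its untranslated sequence. Their 26 intervals, each made of whole bins of 200 bp, added up to 8.2 kb and touched all 30 coding exons. They held 3703 of the 3762 coding bases (98.4%), and the 59 coding bases left out were at the edges of exons. Of the 3′ UTR they held 38 of 2440 bases (1.56%), all in the bin that also holds the stop codon. Of the 5′ UTR they held 1 base, the one next to the start codon, and noncoding exon 1 had no region. The remaining 4458 bases of the regions, 54.4% of their length, were intron next to exons. A shorter annotated end of the transcript, with a 3′ UTR of 336 bases, also ran 298 bases past the last region. The files hold reads per region and no exon junctions, so whether these reads came from the mRNA or from DNA that carries the coding sequence was not tested. This holds for every read number and ratio given for Cyfip1, in the wild-type and IgG libraries too.

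**Figure D1:**
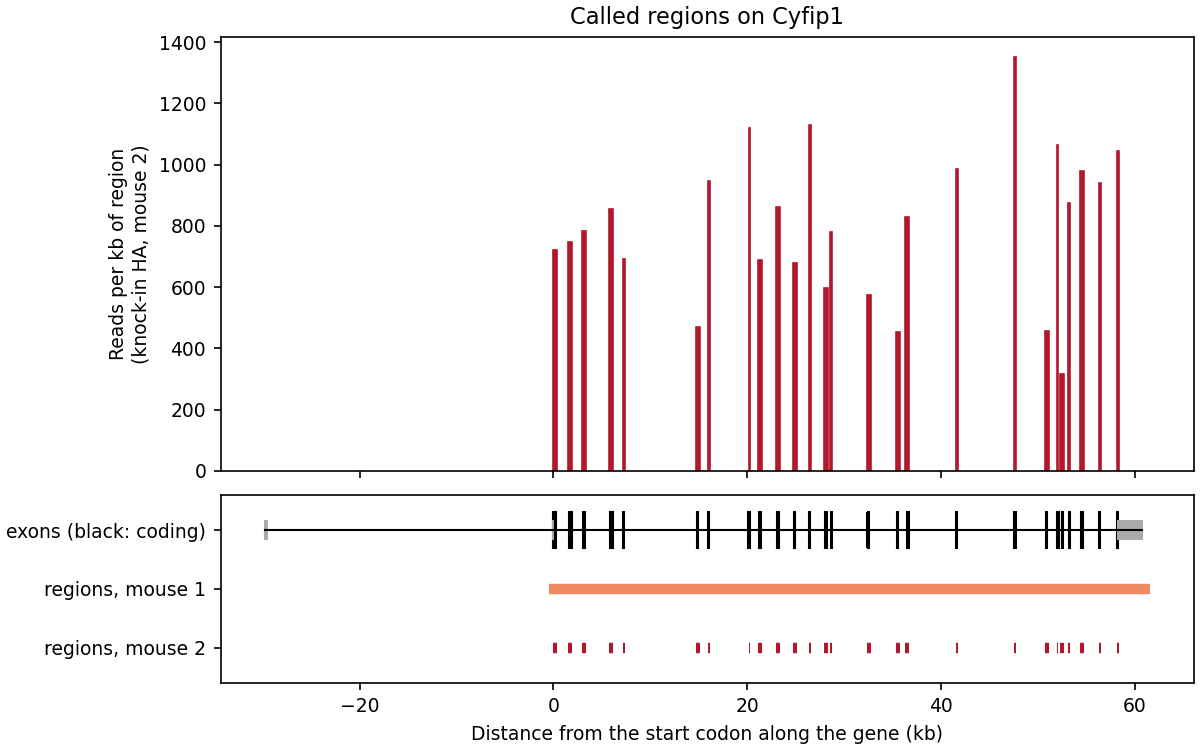
Called regions on Cyfip1 by distance from the start codon along the gene, in kb. The upper panel gives knock-in HA reads per kb of region in mouse 2; the lower panel gives exons of Cyfip1-201 (black, coding; grey, untranslated), the region of mouse 1 and the 26 regions of mouse 2. The regions of mouse 2 sit on the 30 coding exons and stop at the start of the 3′ UTR, while mouse 1 has a single region of 62 kb.

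In mouse 1 the same gene was called as 1 region of 62 kb, chr7:55871401-55933400, in both lists. It started 459 bases before the start codon and 29093 bases past the end of exon 1, so it too left out the noncoding first exon. It ran through the coding exons, the introns and the whole 3′ UTR, ended 798 bases past the gene and reached 2114 bases into Nipa2, a magnesium transporter gene on the opposite strand. Only 3 of 4191 regions over IgG and 4 of 5355 over wild type were as wide, itself included. The position of reads inside it is not given, so every statement on position in a knock-in HA library below rests on mouse 2 alone and has no replicate check.

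The wild-type library can be placed more closely, because it was counted in both sets of regions. It had 431 reads in the 62-kb region and 416 in the 26 narrow regions that lie inside it, which is 96.5% (95% exact Clopper-Pearson interval 94.3 to 98.0%) of the reads in 13.2% of the length. By subtraction, the other 53.8 kb of the wide region, with the introns and nearly all of the 3′ UTR, held 15 wild-type reads. The density was 50.7 reads per kb in the narrow regions and 0.279 per kb in the rest, a ratio of 182. If all 15 lay on the 2402 bases of 3′ UTR outside the narrow regions, that UTR would hold 6.24 reads per kb, against 112 per kb of coding sequence, which is 18.0-fold lower. No source used here says how reads that span 2 exons were counted. Counting such reads in more than 1 region would make the 15 too low, by an amount that is not known. The 96.5%, the ratio of 182 and the 18.0-fold would then be too high, so they are not bounds. Among 36 other wide regions of mouse 1 over wild type with at least 20 reads and several regions of mouse 2 inside them, a median of 78.6% of the wild-type reads lay in the narrow regions, which made up a median of 61.0% of the length. The share on Cyfip1 was reached by 4 of the 36, and a length share as small by 3 of them.

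Other genes with many HA reads in mouse 2 mostly had their 3′ UTR in called regions, but the regions of the lists were in general wider than those on Cyfip1. Regions of mouse 2 on chromosome 7 had a median width of 400 bp in both lists. Most of these were the Cyfip1 regions themselves, 26 of 32 over IgG and 26 of 36 over wild type. The whole lists had medians of 2200 bp over IgG and 1845 bp over wild type. In them, 1817 of 1920 and 5089 of 5362 regions were at least as wide as the widest of Cyfip1. A wider region takes in more sequence next to it, so the cover of other genes is not measured at the width of the Cyfip1 regions. Over IgG, 44 other genes had at least 100 HA reads and a 3′ UTR of at least 300 bases, and a median of 72.2% of their coding bases and 94.0% of their 3′ UTR bases was in regions. Over wild type there were 96 such genes, with medians of 82.9% and 98.8%. Genes covered over at least 90% of the coding sequence numbered 10 over IgG and 34 over wild type, with a median 3′ UTR cover of 100% in each list. Of all these genes, 12 of 44 over IgG and 11 of 96 over wild type had 0% of the 3′ UTR in regions. Among those with at least 90% of the coding sequence covered, 1 in each list had as little of the 3′ UTR covered as Cyfip1, and it was Kifc2, a kinesin gene, with 92.5% of its coding bases and 0% of its 3′ UTR in 1 region. That region held 115 HA reads, against 88 wild-type and 174 IgG reads. Cyhr1 also had 1 region with these same read numbers, and it held 100% of its coding bases and 100% of its 3′ UTR. The reads may therefore not belong to Kifc2 alone. Sptbn1, a spectrin gene with 31 regions and the most regions of these genes over IgG, had 93.3% of its coding bases and 100% of its 3′ UTR in regions. Macf1, a cytoskeletal linker gene with 35 regions and the most over wild type, had 95.8% and 100%. These comparison genes were chosen after their values were seen, and the contrast was described, not tested.

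**Figure D2:**
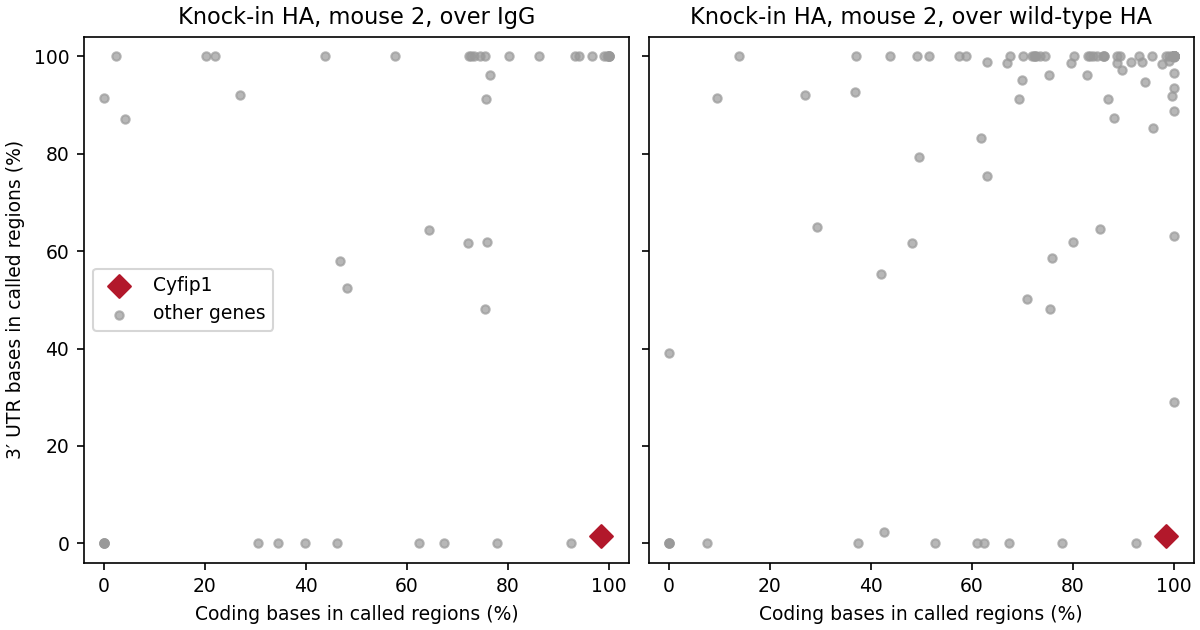
Share of coding bases (x axis, %) and of 3′ UTR bases (y axis, %) that lie in called regions of mouse 2, over IgG (left) and over wild-type HA (right). Each point is a gene with at least 100 HA reads and a 3′ UTR of at least 300 bases; the diamond is Cyfip1, at 98.4% and 1.56% in both panels.

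Summed over the gene, Cyfip1 was among the genes with the most reads and the largest ratios in every list. Mouse 1 had 6101 HA reads on Cyfip1, against 431 reads in the wild-type HA library and 67 in its own IgG library. Mouse 2 had 6186 HA reads, against 416 in the wild-type HA library and 115 in its own IgG library. The unscaled HA read numbers thus had a ratio of 1.01 (mouse 2 over mouse 1), in unlike called lengths of 8.2 and 62 kb. With depth unknown, this ratio does not measure agreement between the mice. In unscaled reads no control library came near either HA library, in regions that were called on the HA library. By HA reads the gene ranked 4 of 2696 and 3 of 1110 genes over IgG in mice 1 and 2, and 7 of 3708 and 9 of 3251 over wild type. Cyfip1 made up 6.13% and 9.66% of all HA reads in called regions over IgG, against 0.260% and 0.361% of the IgG reads. Over wild type it made up 3.95% and 3.71% of the HA reads, against 0.237% and 0.230% of the wild-type reads. The lists do not give library totals, so read ratios were set against the median ratio of all regions of a list with at least 20 reads, and are called relative folds. Over IgG these were 31.5 (95% counting interval 24.7 to 40.6) in mouse 1 and 56.8 (47.3 to 68.9) in mouse 2. Over the wild-type library they were 10.02 (9.09 to 11.1) in mouse 1 and 8.50 (7.69 to 9.41) in mouse 2. On the log2 scale the mean relative fold was 5.40 ± 0.60 over IgG and 3.21 ± 0.17 over wild type (SD, n = 2 knock-in HA libraries). Other scalings put these means between 1.37 and 4.89 over IgG and between 1.73 and 4.03 over wild type, all above 0. The SD over wild type holds no variation of the control, since 1 wild-type library served both lists. All intervals cover counting error only, and sequencing reads without molecular identifiers are not independent molecules. With 2 libraries against 2, an exact two-sided permutation test cannot go below p = 0.333, so no p is given. All libraries are precipitates and none is named as input, so whether the gene's abundance differed between knock-in and wild-type lysates was not measured. Capture in the precipitate, more molecules per cell and more cells that express the gene cannot be told apart there. Over IgG, both precipitates carry the number of the same mouse.

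The calls of Cyfip1 stood against different backgrounds. In the authors' deposited table the adjusted p was below 0.05 for every Cyfip1 region, while 64.6% of all regions over IgG and 82.3% over wild type met that limit in mouse 1, and 87.3% and 78.8% did in mouse 2. These shares are so large that the authors' call by itself sets Cyfip1 little apart. A relative fold of at least 4, among genes with at least 20 reads, was reached by Cyfip1 in all 4 lists, and by 3.2% of genes over IgG and 1.76% over wild type in mouse 1, and 3.91% and 1.68% in mouse 2. Taken region by region in mouse 2, all 26 reached it over IgG, where 21.8% of regions with at least 20 reads did, and all 26 over wild type, where 4.31% did. These shares count the Cyfip1 regions themselves, which were 26 of the 165 regions that reached it over IgG and 26 of the 58 over wild type. The regions were called on the HA library and belong to 1 transcript, so they are neither an independent test nor replicates. By relative fold Cyfip1 ranked 7 of 1094 and 5 of 716 genes over IgG and 7 of 1932 and 7 of 1671 over wild type, in mice 1 and 2.

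The 2 kinds of control also differed from each other on Cyfip1. In the 62-kb region the wild-type HA library held 431 reads, against 67 in IgG of mouse 1, a ratio of 6.43 (4.96 to 8.45). In the 26 regions it held 416 reads, against 115 in IgG of mouse 2, a ratio of 3.62 (2.94 to 4.49). Other regions shared by both lists of a mouse, with at least 20 reads, had a median wild-type to IgG ratio of 1.95 (396 regions) in mouse 1 and 0.430 (448 regions) in mouse 2. Relative to these medians the ratio on Cyfip1 was 3.29 (2.54 to 4.33) and 8.41 (6.83 to 10.4). On this scale, reads on Cyfip1 were more frequent in the anti-HA precipitate of the wild-type mouse than in either IgG precipitate. The size of that difference was not the same in the 2 comparisons. As a share of all reads in called regions the order was the other way, with 0.237% and 0.230% in wild type. In IgG that share was 0.260% and 0.361%, on lists with other regions. Library totals are unknown, so the direction depends on the scale. The cause was not tested.

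Along the coding sequence the HA reads of mouse 2 lay on every coding exon at densities within a 1.74-fold range. A region held 126 to 392 HA reads, with a median of 225, against 3 to 32 wild-type reads with a median of 15.5 and 1 to 8 IgG reads with a median of 4.5. The lowest HA count was above the highest wild-type count. These are unscaled reads of single libraries in regions called on the HA library, so this separation is not a test. Per kb of coding sequence, HA reads ranged from 1290 in exon 31 to 2239 in exon 23, with a median of 1658. Dividing by coding bases need not take out all of the effect of exon size. The coefficient of variation of this density over the 26 regions was 16.2%. Counting alone gives 6.48% for a region with the mean number of reads. Regions differ in read number, so this counting value, like those given below for the controls, is somewhat too low for densities. The HA value was well above it, so the HA profile had some unevenness beyond counting. Whether exon size accounts for that unevenness was not tested. The wild-type density ranged from 41.1 to 171 reads per kb of coding sequence, with a coefficient of variation of 30.3% where counting alone gives 25.0%. For IgG it was 46.0%, where counting alone gives 47.5%, so at this depth no shape could be seen in the IgG profile.

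**Figure D3:**
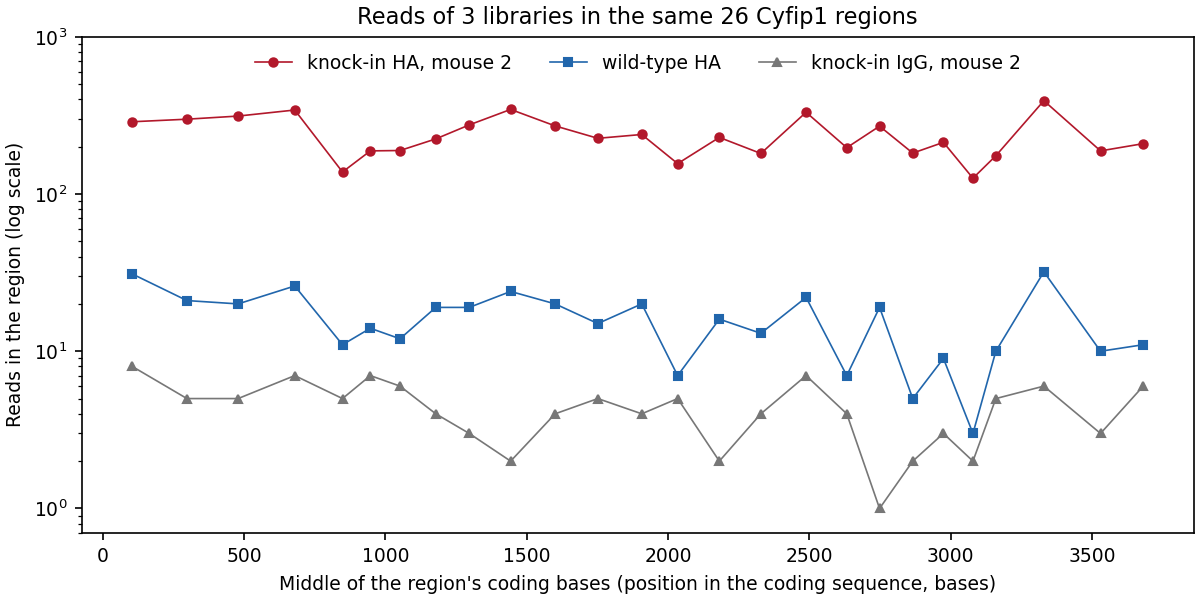
Reads in each of the 26 Cyfip1 regions (log scale) against the middle of the region's coding bases, counted in bases from the start codon, for knock-in HA of mouse 2, wild-type HA and knock-in IgG of mouse 2. The HA library lies between 126 and 392 reads at every position, above the wild-type library at 3 to 32 and the IgG library at 1 to 8.

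At the 5′ end, the region over exons 2 and 3, with the start codon printed above, held 288 HA reads, 31 wild-type reads and 8 IgG reads. Its HA to wild-type ratio of 9.29 (6.40 to 13.9) was the lowest of the 26. The next 3 regions, over exons 4 to 8, held 299, 313 and 342 HA reads, against 21, 20 and 26 wild-type reads and 5, 5 and 7 IgG reads. Exon 9 had 138 HA reads, against 11 wild-type and 5 IgG reads, on 105 coding bases. Exons 10, 11 and 12 had 188, 189 and 224 HA reads, against 14, 12 and 19 wild-type and 7, 6 and 4 IgG reads. The ratios over wild type of these 7 regions lay between 11.8 and 15.8, so they differed from each other by less than their counting intervals.

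In the middle, exons 13 to 17 had 275, 345, 271, 226 and 239 HA reads in 5 regions, against 19, 24, 20, 15 and 20 wild-type reads and 3, 2, 4, 5 and 4 IgG reads. Exon 18 had 156 HA reads, against 7 wild-type and 5 IgG reads. The region over exons 19 and 20 had 229, against 16 and 2, and exons 21 and 22 had 181 and 331 HA reads, against 13 and 22 wild-type and 4 and 7 IgG reads. Ratios over wild type ran from 11.9 to 22.3 here, and the ratio of the whole gene, 14.9, was inside the interval of each of them.

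Exon 16 has alternative forms in the annotation, and the regions of mouse 2 lay on one of them. The form of Cyfip1-201, at chr7:55898238-55898391, had all of its 154 bases in a region with 226 HA reads, 15 wild-type reads and 5 IgG reads. The form of Cyfip1-202, 148 bases at chr7:55897825-55897972, had 0 bases in any region of mouse 2. The forms share 96 of 172 aligned positions (55.8%) and are shown here because they are the place where the annotated coding sequences part, both on the plus strand, from GENCODE M21.
Cyfip1-201 exon 16: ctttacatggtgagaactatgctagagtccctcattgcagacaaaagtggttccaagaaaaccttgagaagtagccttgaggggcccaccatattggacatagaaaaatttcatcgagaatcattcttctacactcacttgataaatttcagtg
Cyfip1-202 exon 16: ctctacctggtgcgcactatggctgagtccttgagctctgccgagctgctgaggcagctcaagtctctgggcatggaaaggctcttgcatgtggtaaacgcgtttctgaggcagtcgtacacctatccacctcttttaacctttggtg
The lists hold called regions alone, so the other form had no call, which is not a count of 0. In mouse 1 both forms lie inside the 62-kb region and cannot be told apart.

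At the 3′ end, HA reads stayed at the level of the 5′ end while wild-type reads were fewer. Exon 23 had 197 HA reads, against 7 wild-type and 4 IgG reads, and exon 24 had 270, against 19 and 1. Exon 25 had 182 HA reads, against 5 wild-type and 2 IgG reads, a ratio over wild type of 36.4 (15.3 to 113). Exon 27, the shortest with 73 coding bases, had the fewest HA reads, 126, against 3 wild-type and 2 IgG reads, and the highest ratio over wild type, 42.0 (14.0 to 206), with the widest interval. Exon 29, the longest with 239 coding bases, had the most HA reads, 392, against 32 wild-type and 6 IgG reads, a ratio of 12.3 (8.54 to 18.2). Exons 26, 28 and 30 had 213, 175 and 188 HA reads, against 9, 10 and 10 wild-type and 3, 5 and 3 IgG reads. The last region, with the stop codon, had 209 HA reads, against 11 wild-type and 6 IgG reads.

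Region by region, few ratios departed from that of the whole gene by more than counting error. The whole-gene ratio over wild type, 14.9 (13.5 to 16.5), lay inside the interval of 24 of the 26 regions, and the exceptions were the region at exons 2 and 3, below it, and exon 25, above it. Over IgG the whole-gene ratio was 53.8 (44.7 to 65.3), and it lay inside the interval of all 26 regions, whose ratios ran from 26.9 to 270 on 1 to 8 IgG reads each, too few to show any but a large departure. With 26 intervals of 95%, an exception by counting alone is not rare.

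**Figure D4:**
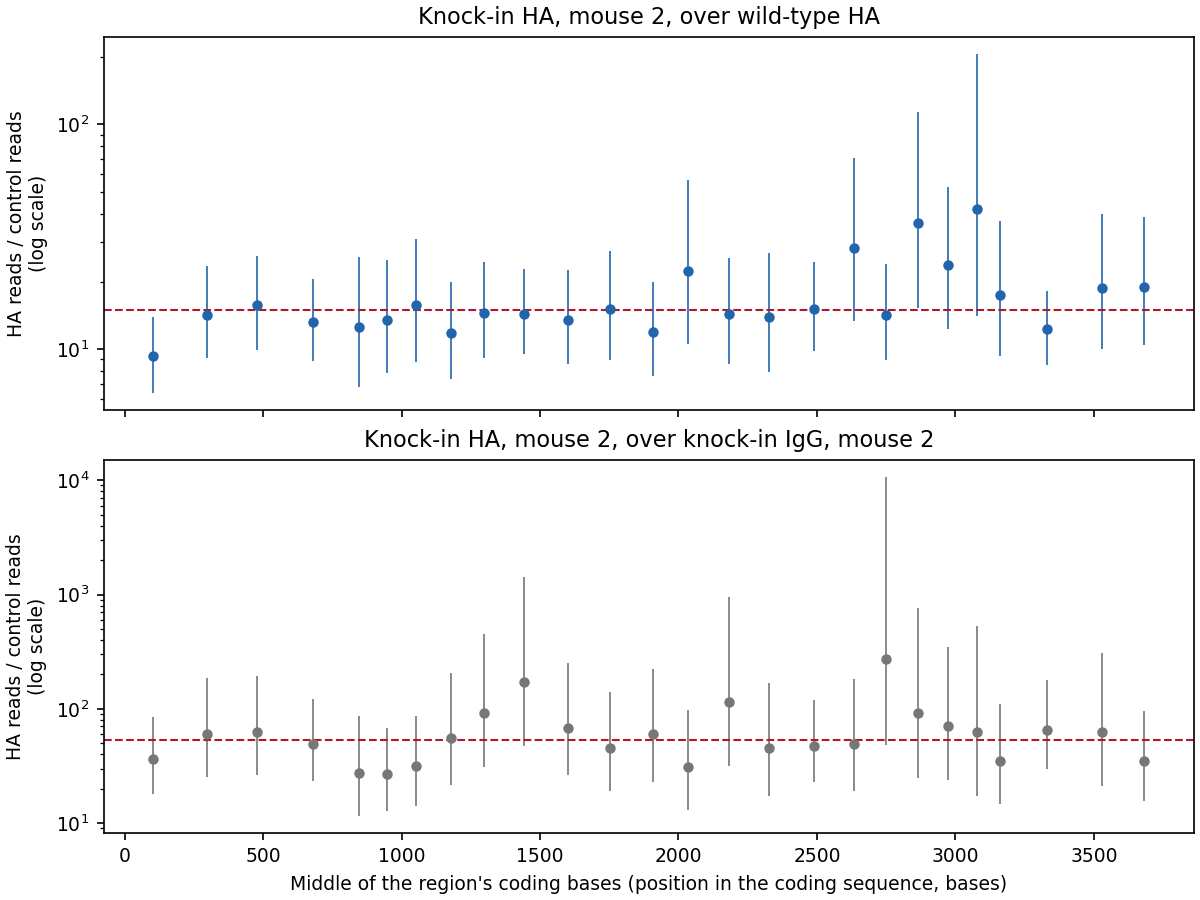
Ratio of knock-in HA reads of mouse 2 to wild-type HA reads (upper panel) and to knock-in IgG reads of mouse 2 (lower panel) in each Cyfip1 region, on a log scale, against position in the coding sequence in bases. Bars are 95% counting intervals and the dashed line is the ratio over all 26 regions, 14.9 over wild type and 53.8 over IgG.

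Divided into 3 equal sections of the coding sequence, HA reads followed the coding bases, with a lower share in the 5′ section than either control. From 5′ to 3′, the HA library had 1981, 2253 and 1952 reads, which is 32.0%, 36.4% and 31.6% of its Cyfip1 reads, where the sections held 32.8%, 36.3% and 30.9% of the covered coding bases. The wild-type library had 154, 156 and 106 reads, or 37.0%, 37.5% and 25.5%. The IgG library of mouse 2 had 47, 36 and 32 reads, or 40.9%, 31.3% and 27.8%. The intervals of the 5′ shares, 32.4 to 41.9% in wild type and 31.8 to 50.4% in IgG, both held the 32.8% of coding bases. Per kb of coding sequence these were 1632, 1678 and 1703 HA reads, 127, 116 and 92.5 wild-type reads, and 38.7, 26.8 and 27.9 IgG reads. The share in the 5′ section was lower in HA than in wild type, with a difference of -5.00 percentage points (counting interval -9.87 to -0.343), and lower than in IgG, with a difference of -8.85 points (-18.1 to -0.217). Leaving out the region over exons 2 and 3, a choice made after seeing the data, the differences were -3.24 (-8.19 to 1.37) and -7.74 points (-17.3 to 0.838), so that neither interval then excluded 0. The HA to wild-type ratio was 12.9 (10.9 to 15.3), 14.4 (12.3 to 17.1) and 18.4 (15.1 to 22.6) from the 5′ to the 3′ section. Over IgG it was 42.1 (31.6 to 57.6), 62.6 (45.1 to 89.6) and 61.0 (43.1 to 89.4). Each value compares 1 library with 1 library, and the wild-type and IgG comparisons share the HA library, so these are differences between single libraries.

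**Figure D5:**
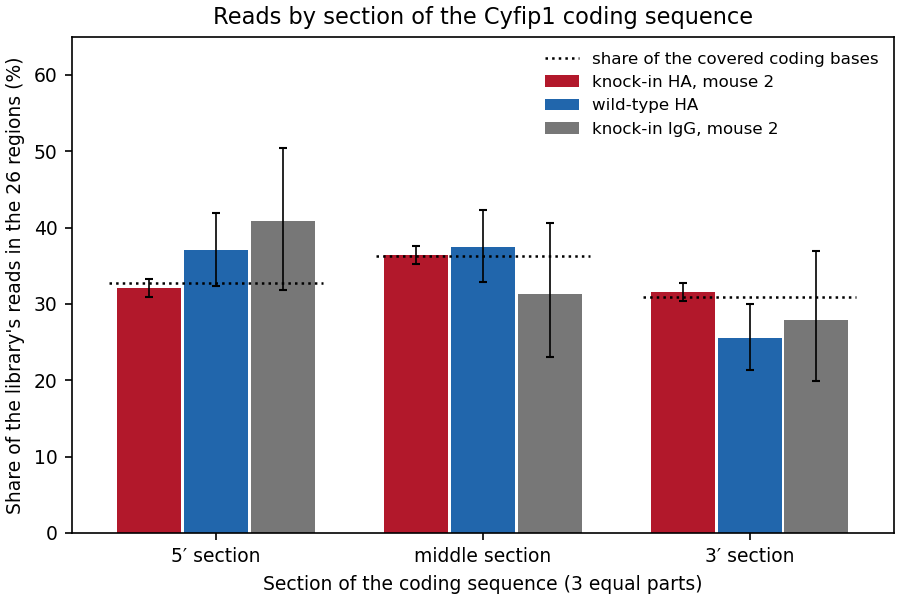
Share of each library's Cyfip1 reads (%) in the 5′, middle and 3′ section of the coding sequence, for knock-in HA of mouse 2, wild-type HA and knock-in IgG of mouse 2. Bars are shares with 95% exact binomial intervals and dotted lines give each section's share of the covered coding bases; HA, at 32.0%, 36.4% and 31.6%, lies near the dotted lines, and wild type is at 25.5% in the 3′ section.

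Across the 26 regions, HA and wild-type reads went together, with Pearson r = 0.89 and Spearman rho = 0.90, but both go with the number of coding bases (r = 0.88 and 0.86). With reads per kb of coding sequence the correlation of HA and wild type was r = 0.29 and rho = 0.34, and of HA and IgG r = 0.08 and rho = -0.09. HA density had no slope with position (r = -0.02, rho = -0.01), while wild-type density had r = -0.57 and rho = -0.53, and the HA to wild-type ratio r = 0.50 and rho = 0.54. HA density and the GC content of the coding bases had r = 0.36 and rho = 0.35. These describe 26 regions of 1 transcript that share libraries and bins, and no p is given.

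Little of the Cyfip1 coding sequence was shared with annotated transcripts of other genes. The reads themselves were not seen, and the introns in the regions were not part of this comparison. Of 3713 words of 50 bases in the coding sequence, the read length per the labels, 99 also occurred in transcripts of another gene, and all were in Gm44616, an annotated gene that overlaps Cyfip1 on the other strand. Whether counting used strand is not given, so reads of the pair cannot be told apart there. Cyfip2, the paralog, which can take the place of CYFIP1 in the WAVE complex, is 77.7% identical over the coding sequence and shares no run longer than 24 bases. It had no region in any list. Of the neighbours, Nipa2 and the pseudogene Gm17907 were on a region only through the 62-kb call of mouse 1. Nipa1, another magnesium transporter gene, had 23 HA reads, against 5 in wild type, in mouse 1. Herc2, a ubiquitin ligase gene, had 181 HA reads, against 224 in wild type, a relative fold of 0.572 (0.468 to 0.699). Tubgcp5, a gamma-tubulin complex gene, had no region. Outside Cyfip1, chromosome 7 had 18 regions over IgG and 544 over wild type in mouse 1, but only 6 and 10 in mouse 2, with median widths of 3800, 7600, 400 and 400 bp when Cyfip1 is counted in.

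Transcripts of CYFIP1's protein partners had lower relative folds than Cyfip1 in these lists. Of 10 other WAVE complex subunits including Cyfip2, 4 had a region in both lists of mouse 1 and over wild type in mouse 2, and 2 over IgG in mouse 2. None of those with at least 20 reads reached a relative fold of 4. Wasf1, which encodes the actin-nucleation promoting subunit WAVE1, had 69 HA reads in mouse 1, against 15 wild-type and 12 IgG reads, and 95 in mouse 2, against 24 and 46. Its relative fold was 1.99 (1.07 to 4.03) and 2.18 (1.52 to 3.17) over IgG, and 3.26 (1.84 to 6.13) and 2.26 (1.43 to 3.70) over wild type. The median relative fold of the subunits with at least 20 reads was 1.99 (3 genes) and 2.18 (1 gene) over IgG, and 1.97 (3 genes) and 2.26 (3 genes) over wild type, where all such genes had medians of 0.839, 0.822, 1.15 and 1.10. Of Rac1, Fmr1, Fxr1, Fxr2 and Eif4e, the transcripts of a WAVE activator and of translation partners, only Fmr1 had a region, over wild type in mouse 2, with 14 HA and 4 wild-type reads.

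The genes nearest to Cyfip1 by their relative folds in the 4 lists, among 327 genes with at least 20 reads in each, were C77080, Yars, Dcaf10, Nhsl1 and Shank2. Likeness was the Euclidean distance over the 4 log2 relative folds, and lists of a mouse share HA reads. C77080 lay at 2.02, with log2 relative folds over IgG of 3.91 and 4.70 in mice 1 and 2 and over wild type of 3.95 and 4.21. Those of Cyfip1 were 4.98 and 5.83 over IgG, and 3.33 and 3.09 over the wild-type library. Yars, at 2.21, had regions in common with C77080. Dcaf10 lay at 3.90, Nhsl1 at 4.38 and Shank2, a postsynaptic scaffold gene, at 4.96. Nhsl1 had the higher folds, log2 7.27 and 6.39 over IgG, on 2230 and 1672 HA reads.

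The lists held few markers of the labelled tissue. Of 7 neuronal markers, Prox1, Map2 and Neurod6 were found, 2 and 3 in the lists of mouse 1 and 0 and 3 in those of mouse 2, over IgG and over wild type, while Camk2a, Snap25, Syt1 and Grin1 had no region. Slc1a3 or Slc1a2, of 5 astrocyte markers, was present in each list, and the markers of microglia, endothelium and choroid plexus had no region. The lists hold called regions alone, so a missing marker does not show that the cells were missing.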

How the data were processed

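The deposited region lists give, for each called region, other values in packed fields: reads of 1 HA library and of 1 control library, not scaled, with the authors' adjusted p. Per the file headers, rtracklayer 1.28.9 wrote them. The submitters' processing notes name TopHat, TopHat2, GRCm38 and mm10. The region caller and the treatment of strand and of spliced reads are not given in the sources used here. The lists hold reads of called regions alone, so depth per library is unknown.

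Regions named Cyfip1 were taken from all 4 lists and set on GENCODE M21 exons, in which 6162 of 6221 gene identifiers were found (99.1%). HA reads were equal in both lists of a mouse at all identical regions (3212 and 1587). Ratios were HA over control reads, with a control of 0 set to 3 reads, and were scaled by the list's median ratio over regions with at least 20 reads. Counting intervals are 95% Clopper-Pearson; intervals of differences combine Wilson intervals. Position is the middle of a region's coding bases. The scaling code was checked on simulated counts with a known ratio. That check does not show that the median of called regions is a baseline without enrichment. A test planned across regions with identical coordinates in both mice could not be run on Cyfip1, since no Cyfip1 region had the same coordinates in both. Named genes were Cyfip1, its neighbours and paralog, the other WAVE subunits, Rac1 and translation partners, and the 5 genes nearest in relative fold. Members and lists were chosen with earlier results of these data known. Alternatives were other scalings, other region sets and leaving out each mouse. Python 3.11.15, numpy 2.4.6, scipy 1.17.1 and biopython 1.88 were used. The result of 1 further list of cell type markers is not reported here.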

Additional observations from a re-analysis of the deposited data

How the results depend on the processing

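The relative fold of Cyfip1 stayed above 1 under every scaling tried, but its size depended on the scaling, since library totals are unknown. Over IgG the mean log2 relative fold of 5.40 became 4.65 with the pooled ratio of all regions as the scale, 1.37 with the median of chromosome 7 regions, and 4.07 with the median of chromosome 7 regions other than Cyfip1, a choice added after seeing the data. Over wild type the mean of 3.21 became 4.03 with the pooled ratio, 2.37 with the median of all regions without a read minimum, 1.73 with the chromosome 7 median, and 2.96 with that median without Cyfip1, also added afterwards. In mouse 2 the chromosome 7 median rests mostly on Cyfip1 itself, with 26 of 32 regions over IgG and 26 of 36 over wild type. Leaving out each mouse gave 4.98 to 5.83 over IgG and 3.09 to 3.33 over wild type. With the replicate block, pairing HA and IgG of a mouse by the number in the labels, the mean over IgG was 5.40 with an SE of 0.43, against 0.42 without it. It was fitted for that result alone, as no other result has numbered pairs in both groups. The difference in the 5′ share between HA and wild type stayed between -5.91 and -3.24 points under the alternatives, at the weakest without the region at the start codon. It has no value without mouse 2, whose regions alone place reads. Every called Cyfip1 region touches coding sequence, so the share of reads in such regions is 100% in all libraries by construction and shows nothing about stability. With reads spread evenly over region length, 49.2% of HA and 49.7% of wild-type reads fell on coding bases, a difference of -0.478 points. The planned edgeR test on identical coordinates and its alternatives were not run, as no Cyfip1 region had the same coordinates in both mice. Depth limits the position results most in IgG, with 1 to 8 reads per region.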
